A study of Mus musculus with 12 samples.

Results

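The microRNAs (miRNAs) described here are 5 mature arms of the miR-34 and miR-449 family, chosen by name among the 1915 miRNA names of the deposited table: mmu-miR-34c-5p, mmu-miR-34c-3p, mmu-miR-34b-3p, mmu-miR-34b-5p and mmu-miR-449a-5p, written without the prefix mmu- below. They were measured by sequencing of small RNAs of 17 to 40 nt from testis total RNA, taken from C57BL/6 males at 4 months of age. The 6 groups were RNA after oxidation with sodium periodate (NaIO4) at inputs of 10, 50 and 100 ng, and RNA before oxidation at the same inputs, with 2 technical replicates each (12 libraries). Spike-in RNAs, with and without a methylated 3' end, were added in every group in proportion to the input, per the labels. The replicates being technical, every p-value measures how far libraries, not mice, vary. Levels are the RPM values that the authors deposited, read counts scaled to library size.

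The family is a set of small RNAs that load into Argonaute proteins and repress messenger RNAs that pair with the seed, bases 2 to 8 of the miRNA. In mice, the miR-34b and miR-34c locus and the miR-449 locus overlap in function in germ cells passing through meiosis and in epithelia that carry many motile cilia, and animals lacking both loci are infertile. Like most mammalian miRNAs, these RNAs have 2' and 3' hydroxyls at their 3' end, which periodate oxidizes so that the sequencing adapter cannot be joined. A 2'-O-methyl group at the 3' end, as found on piRNAs, protects against this reaction.

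The mature sequences show which arms share a seed. RefSeq (GRCm38.p6) sequences were matched for 4 of the 5 arms, all except miR-34c-5p, and those of miR-34a-5p and miR-449c-5p are shown with them as relatives of the -5p arms. Each is written 5' to 3' with the seed in capitals.
miR-34b-5p: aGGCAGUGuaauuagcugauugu
miR-449a-5p: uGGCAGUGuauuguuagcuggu
miR-34a-5p: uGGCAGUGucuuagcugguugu
miR-449c-5p: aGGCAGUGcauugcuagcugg
miR-34c-3p: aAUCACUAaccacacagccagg
miR-34b-3p: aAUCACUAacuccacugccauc
In the RefSeq table of 1679 mature mouse miRNAs, 4 entries, all shown here, had the seed GGCAGUG, and miR-34c-3p and miR-34b-3p were the 2 with the seed AUCACUA. Since miR-34c-5p had no matched sequence, this count does not say whether it shares the seed of the other -5p arms. These -3p arms had the same base at 17 of 22 positions counted from the 5' end, whereas miR-34b-5p and miR-449a-5p shared 10 of 22 in an ungapped comparison. The arms miR-34b-3p and miR-449a-5p were alike in composition, at 22 nt and 45.5% G and C each.

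In GRCm38 the Mir34c hairpin lies on chromosome 9 from 51103034 to 51103110 and the Mir34b hairpin from 51103562 to 51103645, both on the minus strand with 451 bases between them. GENCODE M21 places both in an intron of Btg4, on the strand opposite to that gene. The Mir449a hairpin lies on chromosome 13 from 113037534 to 113037624 on the plus strand, in an intron of Cdc20b on the same strand.

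The libraries corresponded to 1924201 to 3347735 reads each in the RPM scaling. Of these, 625 to 937 were miRNA reads after oxidation and 326701 to 454158 before it. A count of 3 reads in 1 library was worth 0.896 to 1.56 RPM. Of the markers checked against the testis label, 7 X-linked miRNAs known from testis summed to 39713 to 47518 RPM before oxidation. All libraries come from whole testis, so the values do not say which cells held the family, and fewer cells of a type and less RNA per cell cannot be told apart.

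One arm made up most of the family. Before oxidation miR-34c-5p, the leading arm of its hairpin, held 85.6% to 93.3% of the reads of all miR-34 and miR-449 names. The 5 arms together held 0.834% ± 0.364 of miRNA RPM after oxidation and 1.45% ± 0.291 before it (SD, n = 6 each). By mean RPM before oxidation miR-34c-5p was the 18th most abundant of 493 miRNAs with reads, miR-34b-3p ranked 59, miR-449a-5p 106, miR-34c-3p 112 and miR-34b-5p 295.

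The level of miR-34c-5p before oxidation was higher at each larger input. It was 1168 and 1081 RPM at 10 ng, 1842 and 1762 RPM at 50 ng, and 2256 and 2152 RPM at 100 ng. The 3 inputs did not overlap, and the libraries of an input lay close together. Each value rested on 2978 to 7059 reads. After oxidation it was 1.85 and 3.64 RPM at 10 ng, 1.74 and 0.445 RPM at 50 ng, and 2.09 and 4.11 RPM at 100 ng, from 1 to 13 reads per library. These 6 low values gave no order of the inputs, since their counting intervals overlapped.

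The seed AUCACUA is carried by miR-34b-3p, the leading arm of the neighbouring hairpin. The level of miR-34b-3p before oxidation was ordered the other way. It was 158 and 143 RPM at 10 ng, 127 and 121 RPM at 50 ng, and 96.4 and 109 RPM at 100 ng. Here the lowest input was the highest in both of its libraries, and again no 2 inputs overlapped. After oxidation miR-34b-3p had 1 read in each 50 ng library and 0 reads in the other 4.

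In the second locus miR-449a-5p, which shares the seed GGCAGUG with miR-34a-5p, was low at 10 ng. Before oxidation it had 10.0 and 6.17 RPM at 10 ng, 38.0 and 29.6 RPM at 50 ng, and 37.4 and 39.6 RPM at 100 ng. Both 10 ng libraries lay below all others, and the 50 and 100 ng libraries overlapped. After oxidation it had 1 read in all, in a 100 ng library.

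The remaining arms were the minor strands of their hairpins. Before oxidation miR-34c-3p had 20.4 and 9.08 RPM at 10 ng, 24.0 and 24.5 RPM at 50 ng, and 15.8 and 18.0 RPM at 100 ng, with 0 reads in all 6 libraries after oxidation. Both 50 ng libraries were the highest, and the 10 and 100 ng libraries overlapped. For miR-34b-5p there were 4, 4 and 3 reads in the second replicates at 10, 50 and 100 ng before oxidation and 0 reads in the other 9 libraries. Its level was thus at or just above the floor of 3 reads where it was seen, and its place relative to the input could not be resolved at this depth.

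**Figure D1:**
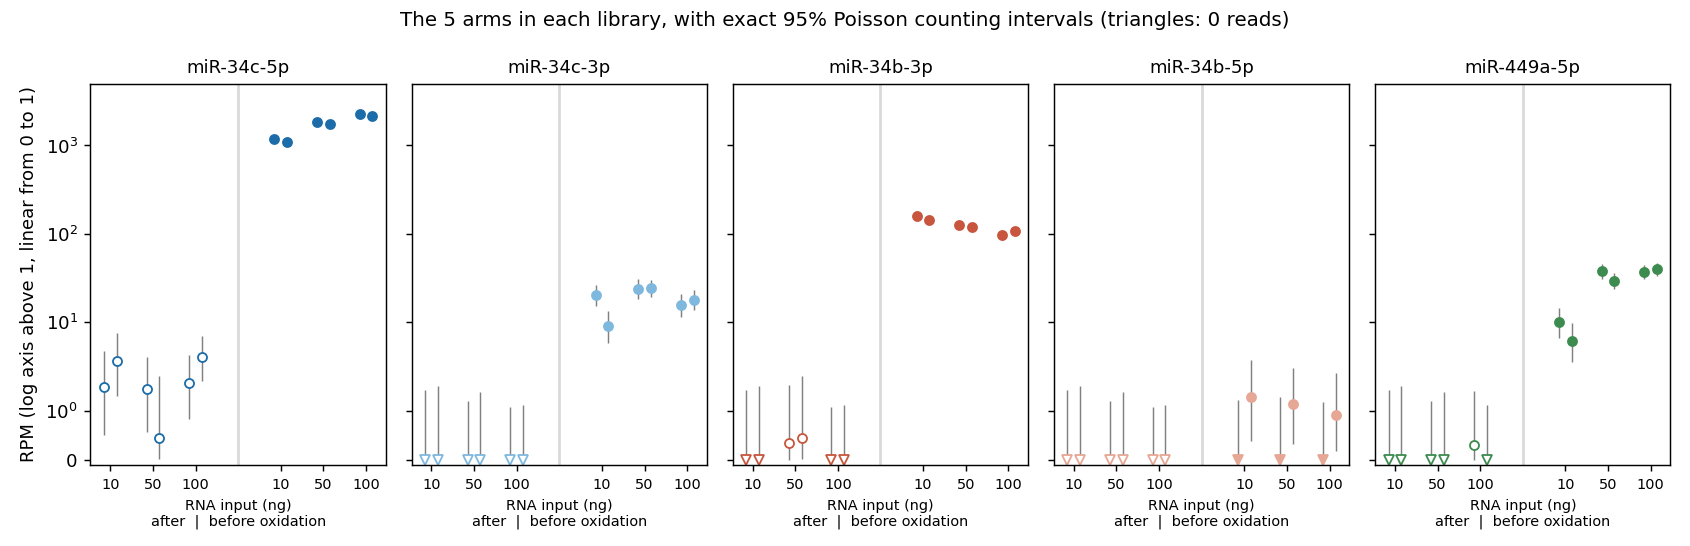
RPM of the 5 arms in each of the 12 libraries (vertical axis, logarithmic above 1 RPM and linear below), by RNA input in ng, with libraries after oxidation on the left of each panel and before it on the right. Bars are exact 95% Poisson intervals of the reads and triangles mark 0 reads; miR-34c-5p lies between 0.445 and 4.11 RPM after oxidation and between 1081 and 2256 RPM before it.

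The first comparison asks whether the measured level of each arm depended on the RNA input. On the log2(RPM + 1) scale, a fit over the 141 miRNAs with a mean of at least 5 RPM (limma-trend) included 4 of the 5 arms, all except miR-34b-5p. At 10 ng against 100 ng before oxidation, 34.8% of the 141 miRNAs were called lower and 19.1% higher at a Benjamini-Hochberg adjusted p below 0.05, and the median log2 fold change was -0.49. Among the 4 arms 1 was called lower, 1 higher and 2 in neither direction.

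The called arm with the lower level was miR-449a-5p, with a log2 fold change of -2.15 ± 0.22 (SE) and a limma adjusted p of 9.48e-05, the third lowest of 141 miRNAs. The called arm with the higher level was miR-34b-3p, at 0.55 ± 0.13 with a limma adjusted p of 0.00761. With every library centred on its own median, these values were -1.77 for miR-449a-5p and 0.93 for miR-34b-3p. The call of miR-34b-3p was lost with a pseudocount of 0.1 (limma adjusted p = 0.13), whereas that of miR-449a-5p held under every alternative in which it was tested.

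For miR-34c-5p the log2 fold change was -0.97 ± 0.38 with a limma adjusted p of 0.0566, so it was not called, and the 95% interval of the difference was -1.84 to -0.10. The shared spread of this fit includes the libraries after oxidation, where miR-34c-5p had 1 to 13 reads. In a fit of the 6 libraries before oxidation alone, an alternative added after seeing the data, the same log2 fold change had a limma adjusted p of 4.23e-20. In that fit 56.0% of miRNAs were called lower and 22.0% higher. With 2 libraries per group, a p-value this small rests on the spread that limma-trend shares over the tested miRNAs. It does not measure how far miR-34c-5p itself varied between libraries. The arm miR-34c-5p was called at the same value with only the groups compared (limma adjusted p = 3.01e-35, resting likewise on the shared spread). It was called at -0.97 with a pseudocount of 10 (limma adjusted p = 1.23e-05). Further calls were at -0.62 by edgeR (edgeR adjusted p = 0.000685) and at -0.65 by DESeq2 (DESeq2 adjusted p = 3.03e-16). Calls were common in these settings. With only the groups compared 102 of the 141 miRNAs were called, 72 of them lower. The pseudocount of 10 gave 111 calls, 75 of them lower. By edgeR there were 75 (33 lower) and by DESeq2 66 (30 lower). With a pseudocount of 0.1, no filter, a filter of 50 RPM or a replicate block, miR-34c-5p was not called, at -0.97. The limma adjusted p were 0.34, 0.0848, 0.0636 and 0.0770 in that order. Centring gave -0.59 and methylated spike-ins -0.65, also without a call (limma adjusted p of 0.26 and 0.0646). Leaving out 1 library gave log2 fold changes of -1.03 to -0.91 for miR-34c-5p. Its value was below 0 under all alternatives run, from -1.03 to -0.40, the smallest being with all spike-in reads as the scale (limma adjusted p = 0.28). The unmethylated spike-ins, part of that scale, themselves averaged 1537 RPM at 10 ng and 4849 RPM at 100 ng before oxidation.

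The minor arm miR-34c-3p, with a log2 fold change of -0.29 ± 0.28 at 10 ng against 100 ng, was not called (limma adjusted p = 0.41, 95% interval -0.94 to 0.36). A single library decided its sign. The log2 fold change was -0.83 without the first replicate at 10 ng before oxidation (limma adjusted p = 0.000473) and 0.26 without the second (limma adjusted p = 0.0703). It was also above 0 after centring, by edgeR and with both spike-in scalings, at 0.00844 to 0.26.

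At 50 ng against 100 ng before oxidation no arm was called, and 0.0% of the 141 miRNAs were called in either direction by limma-trend. At an unadjusted p below 0.05 there were 24 miRNAs, none of them an arm of this family, while edgeR called 11 and DESeq2 35. The log2 fold changes were -0.29 (95% interval -1.16 to 0.58) for miR-34c-5p, 0.50 (-0.15 to 1.15) for miR-34c-3p, 0.27 (-0.02 to 0.57) for miR-34b-3p and -0.19 (-0.69 to 0.30) for miR-449a-5p. Some alternatives gave calls. For miR-34c-5p these were DESeq2 at -0.32 (adjusted p = 0.000224) and limma with only the groups compared, with the 6 libraries before oxidation and with summed miRNA RPM (limma adjusted p of 0.00153, 0.000106 and 0.00924). For miR-34b-3p they were limma with a pseudocount of 10, with all spike-in reads and with summed miRNA RPM, at 0.25, 0.39 and 0.35 (limma adjusted p of 0.0372, 0.0321 and 0.0479). For miR-34c-3p, leaving out either 10 ng library before oxidation gave a call at the same value (limma adjusted p of 0.0090 for both). The comparisons of 10 ng and of 50 ng share the 100 ng libraries.

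**Figure D2:**
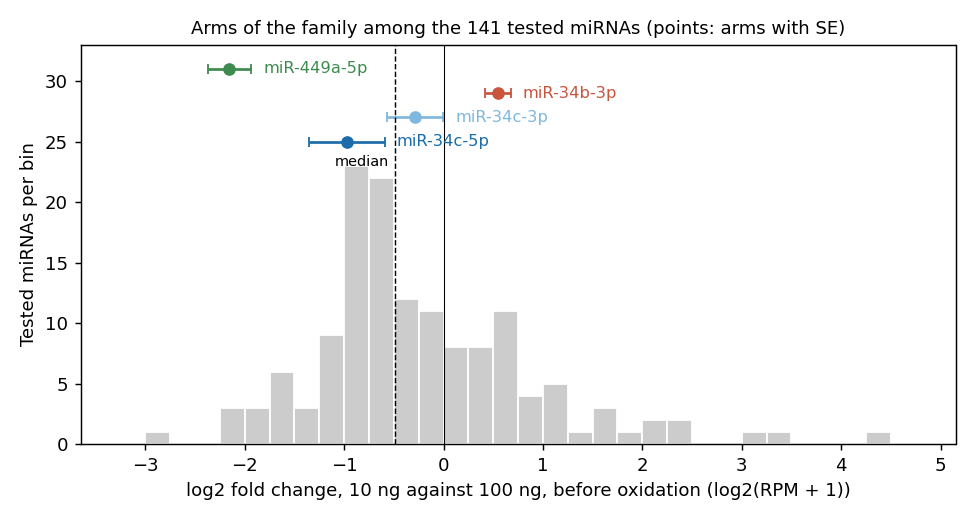
Histogram of the log2 fold change at 10 ng against 100 ng before oxidation for the 141 tested miRNAs (grey, number per bin of 0.25), with the 4 tested arms as points with SE above it. The dashed line is the median of -0.49; miR-449a-5p at -2.15 sits in the lower tail and miR-34b-3p at 0.55 on the other side of 0.

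An order over all 3 inputs was common in the table. Each input lay below the next without overlap for 28.4% of the 141 miRNAs, miR-34c-5p among them, and above the next for 19.1%, miR-34b-3p among them. The 10 ng libraries lay wholly below the 100 ng libraries for 59.6% of miRNAs, including miR-34c-5p and miR-449a-5p, and wholly above them for 29.1%, including miR-34b-3p. By arm, 30 of 76 tested -5p arms were called lower and 12 higher at 10 ng against 100 ng, with a median log2 fold change of -0.61, and 19 of 60 tested -3p arms were called lower and 15 higher, with a median of -0.30. The difference between arms was not tested.

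The ratio of the leading arms of both chromosome 9 hairpins within a library differed between inputs. Before oxidation there were 7.38 and 7.58 reads of miR-34c-5p per read of miR-34b-3p with 10 ng of RNA, 14.5 and 14.6 with 50 ng, and 23.4 and 19.8 with 100 ng. This ratio needs no scaling to library size, and its mean was 7.48 at 10 ng and 21.6 at 100 ng. No 2 inputs overlapped, and the libraries of an input agreed to within 0.137 (SD) at 10 ng and 2.56 at 100 ng.

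The ratios to miR-449a-5p separated the 10 ng libraries from the rest. Reads of miR-34c-5p per read of miR-449a-5p numbered 117 and 175 with 10 ng of RNA, 48.5 and 59.6 with 50 ng, and 60.3 and 54.3 with 100 ng. Reads of miR-34b-3p per read of miR-449a-5p numbered 15.8 and 23.1 with 10 ng of RNA, 3.34 and 4.09 with 50 ng, and 2.58 and 2.75 with 100 ng. The denominators at 10 ng were 28 and 17 reads of miR-449a-5p.

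The arms of one hairpin differed less regularly. Reads of miR-34c-5p per read of miR-34c-3p numbered 57.4 and 119 with 10 ng of RNA, 76.6 and 72.0 with 50 ng, and 142 and 119.6 with 100 ng, with a mean of 97.8 ± 33.7 over the 6 libraries (SD). The replicates at 10 ng differed by more than the means of any inputs (88.3, 74.3 and 131 at 10, 50 and 100 ng). In the Mir34b hairpin the -3p arm prevailed, with 2211 reads of miR-34b-3p against 11 of miR-34b-5p over the 6 libraries before oxidation, a ratio of 201. Over the 3 libraries that held miR-34b-5p reads the mean ratio was 106 ± 11.2 (SD).

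**Figure D3:**
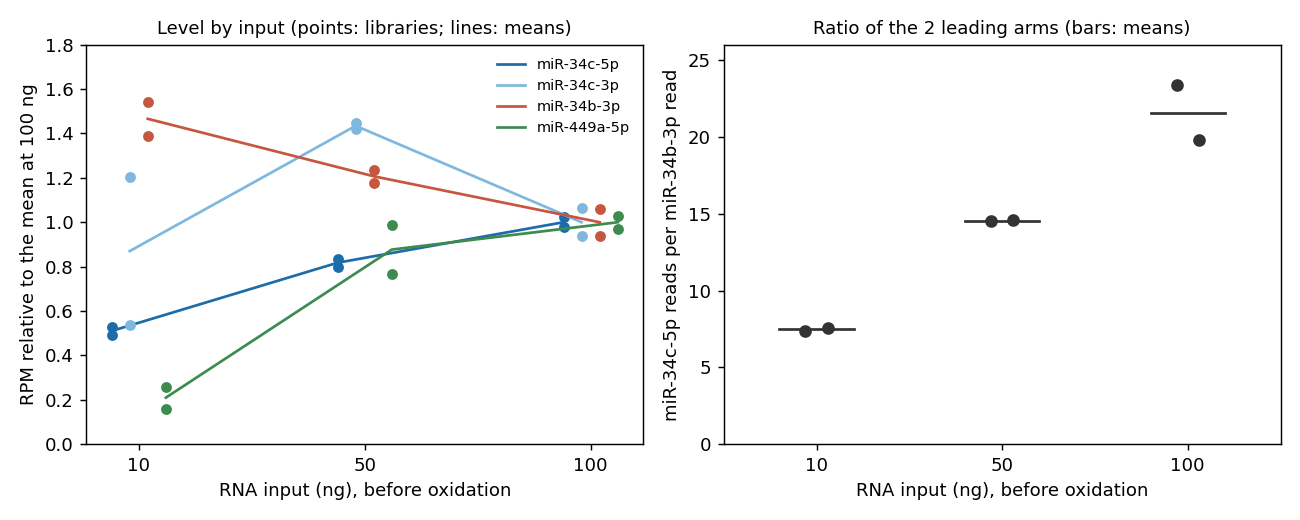
Left, RPM of the 4 tested arms before oxidation relative to each arm's mean at 100 ng, by RNA input in ng (points are libraries, lines join means). Right, reads of miR-34c-5p per read of miR-34b-3p in the same libraries (bars are means), 7.48 at 10 ng, 14.5 at 50 ng and 21.6 at 100 ng.

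The miRNAs most like each leading arm across the 6 libraries before oxidation were named by Pearson correlation of log2(RPM + 1), as a description over libraries that share inputs and depth. For miR-34c-5p they were miR-881-3p (r = 0.995), miR-30a-5p (0.993), miR-471-5p (0.993), miR-16-5p (0.992) and miR-743b-5p (0.990). The first of these averaged 195 RPM at 10 ng, 428 at 50 ng and 627 at 100 ng. For miR-34b-3p they were miR-465a-3p with its b and c copies (r = 0.974 each, with identical values, so their reads cannot be told apart), miR-191-5p (0.970) and miR-361-5p (0.968). Within the family, r was 0.97 between miR-34c-5p and miR-449a-5p, 0.45 between miR-34c-5p and miR-34c-3p and -0.92 between miR-34c-5p and miR-34b-3p.

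Values of other miRNAs described in male germ cells are given for comparison. Of 12 listed, 6 of them also among the X-linked miRNAs, 11 were in the table and 9 were tested. At 10 ng against 100 ng before oxidation 3 of the 9 were called lower (miR-471-5p, miR-881-3p and miR-883a-3p, at -1.14, -1.68 and -1.64) and 1 higher (miR-871-3p, at 1.21), with a median of -0.62 beside -0.49 over all 141. Over all 141 the shares were 34.8% lower and 19.1% higher, so these counts show nothing particular to the list. Summed markers moved with the input as well. The 7 X-linked miRNAs summed to 39713 to 40983 RPM at 10 ng, 44177 to 44377 at 50 ng and 47248 to 47518 at 100 ng. Most of this sum was miR-741-3p, with a mean of 28164 RPM before oxidation. Its log2 fold change at 10 ng against 100 ng was -0.68. Of the 7, miR-470-5p and miR-871-3p were higher at 10 ng (0.77 and 1.21) and the rest lower, with 1 called higher and 1 lower. The 3 smooth muscle miRNAs summed to 9078 to 9309, 12193 to 12269 and 13547 to 13741 RPM. Nearly all of it was miR-143-3p (mean 11546 RPM, -0.58), while miR-145a-3p was at 0.20, and neither was called. The 2 arms of miR-202, a miRNA of Sertoli and other gonadal somatic cells, summed to 105 to 110, 171 to 175 and 187 to 200 RPM.

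The 2 arms of miR-202 went opposite ways, at -1.47 for miR-202-5p and 2.09 for miR-202-3p. The 4 blood miRNAs, with miR-223-3p at 0 in all libraries, summed to 0.179 to 1.45 RPM at 10 ng, 0.448 to 2.71 at 50 ng and 1.98 to 4.72 at 100 ng. The liver miRNA miR-122-5p was also among the listed germ cell miRNAs, and it was not tested. It had 1.82 to 6.07 RPM at 10 ng, 0.896 to 1.16 at 50 ng and 0.305 to 0.674 at 100 ng. Summed miRNA abundance was 116696 to 119672 RPM at 10 ng, 128125 to 130591 at 50 ng and 135591 to 138463 at 100 ng. The part of these shifts in the family's values was not tested. An alternative added after seeing the data divided the values by summed miRNA RPM. The changes at 10 ng against 100 ng were then -0.76 for miR-34c-5p, 0.76 for miR-34b-3p and -1.95 for miR-449a-5p. Their limma adjusted p were 1.92e-10, 3.25e-05 and 5.95e-06, resting on the spread shared over the tested miRNAs. The arm miR-34c-3p was not called, at -0.09 (limma adjusted p = 0.84). Calls were common in that fit, with 54 of the 141 miRNAs called lower and 42 higher.

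The second comparison asks whether the arms withstood periodate. All 4 tested arms fell, as did 97.2% of the 141 tested miRNAs, while 1.42% rose. The 5 arms together had 40 reads over the 6 libraries after oxidation, of which 37 were miR-34c-5p, against 33686 reads before it. For miR-34c-5p the mean was 2.31 ± 1.34 RPM after and 1710.4 ± 490.5 RPM before oxidation (SD, n = 6 each), 739.7-fold lower in RPM. Its log2 fold change averaged over inputs was -9.07 ± 0.22 (SE), with a limma adjusted p of 8.23e-11. For miR-34b-3p the mean was 0.132 RPM after and 126 RPM before, with a log2 fold change of -6.81 ± 0.07 (limma adjusted p = 2.00e-12).

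The 2 rarer arms show where depth sets the limit. With 1 read after oxidation and 26.8 RPM before it, miR-449a-5p had a log2 fold change of -4.46 ± 0.13 (limma adjusted p = 2.55e-10). With 0 reads after and 18.6 RPM before, miR-34c-3p was lower by at least 97.6-fold, taking 3 reads summed over these libraries as the floor, with a log2 fold change of -4.23 ± 0.16 (limma adjusted p = 2.99e-09). With the pseudocount of 1, an arm listed at or near 0 after oxidation cannot fall further than its level before it allows, so these values do not rank the arms by their loss. For miR-34b-5p, with 0 reads after oxidation and 0.594 RPM before it, the same floor gives at least 3.11-fold lower.

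With each library centred on its median miRNA, a value is a change relative to that median. So scaled, miR-34c-5p and miR-34b-3p were called lower, at -2.86 and -0.60 (limma adjusted p of 1.24e-06 and 0.000115), whereas miR-34c-3p and miR-449a-5p turned positive (1.98 and 1.75). With the pseudocount of 1, these values depend on the level before oxidation and do not rank the arms by their loss. In the share of RPM left, without a pseudocount, miR-34c-5p stood at 0.135%, above the median of 0.0907% over the 141. By edgeR with TMM no tested arm was called, at log2 fold changes of -0.27 for miR-34c-5p, -6.64 for miR-34b-3p, -4.73 for miR-449a-5p and -7.78 for miR-34c-3p (edgeR adjusted p of 0.43 to 0.702). By DESeq2 the values were 0.15 for miR-34c-5p, -0.19 for miR-34b-3p and 1.98 for miR-449a-5p, with no call (DESeq2 adjusted p of 0.0965 to 0.881) and no adjusted p for miR-34c-3p. TMM and the DESeq2 size factors also scale each library to its own miRNAs, so these values are relative to other miRNAs. The median log2 fold change of all 141 miRNAs was -6.02 in RPM. Scaled to the methylated spike-ins, which withstand periodate, the log2 fold changes were -11.34 for miR-34c-5p, -8.38 for miR-34b-3p, -5.93 for miR-449a-5p and -5.67 for miR-34c-3p.

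The level left after oxidation can be set beside the unmethylated spike-ins, a control with free 3' hydroxyls. For miR-34c-5p the mean RPM after oxidation was 0.135% of that before it (95% Poisson interval 0.0952% to 0.186%, from 37 reads). For the unmethylated spike-ins it was 0.153% (0.122% to 0.189%, from 84 reads), and for all miRNAs summed 0.236% (0.229% to 0.243%, from 4609 reads). The interval of miR-34c-5p overlapped that of the spike-ins and lay below that of the sum. The median over the 141 tested miRNAs was 0.0907%. The 7 other miRNAs with 1000 to 3000 RPM before oxidation stood at 0.0479% to 0.105% of their RPM before it, with a median of 0.0815%. Their highest value lay within the interval of miR-34c-5p. The intervals cover counting error in the reads after oxidation and not the spread between libraries.

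By input, the share of miR-34c-5p left was 0.244% at 10 ng (0.122% to 0.436%, from 11 reads), 0.0608% at 50 ng (0.0223% to 0.132%, from 6 reads) and 0.141% at 100 ng (0.0859% to 0.217%, from 20 reads). The intervals of all 3 inputs overlapped. The unmethylated spike-ins gave 0.224%, 0.144% and 0.137% at the same inputs. The methylated spike-ins had 30404 and 28325 reads before oxidation and 291583 and 300939 after it at 10 ng. At 100 ng they had 39764 and 42523 before and 265055 and 212579 after it. The make-up of the libraries thus changed by an amount that differed with input. The shares are ratios of RPM and not shares of molecules, and those of different inputs are not on 1 scale. For miR-34b-3p 2 reads left a share of 0.105% over all inputs (0.0128% to 0.380%), and for miR-449a-5p 1 read left 0.186% (0.0047% to 1.04%).

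**Figure D4:**
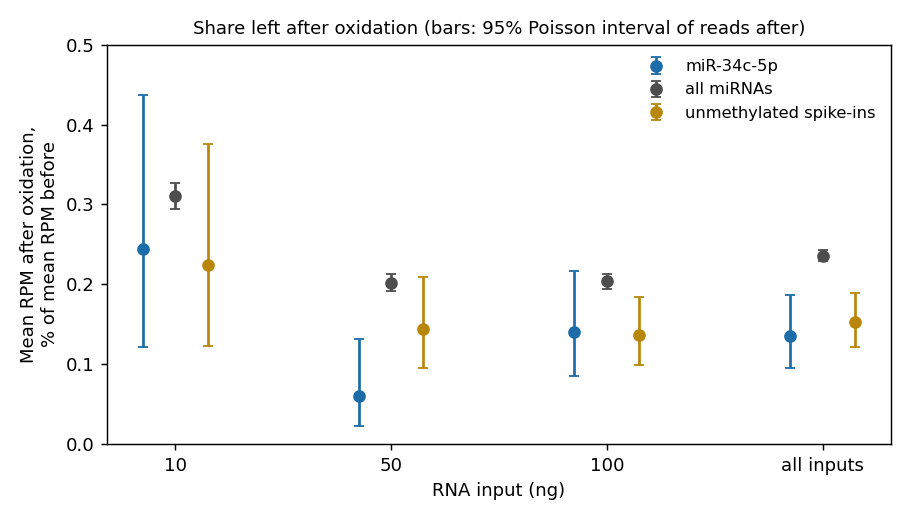
Mean RPM after oxidation as a percentage of mean RPM before it, by RNA input in ng, for miR-34c-5p, all miRNAs summed and the unmethylated spike-ins. Bars are exact 95% Poisson intervals of the reads after oxidation; over all inputs miR-34c-5p stood at 0.135%, all miRNAs at 0.236% and the unmethylated spike-ins at 0.153%.

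Whether the change on oxidation depended on the input was tested as the interaction of oxidation with 10 ng against 100 ng. By limma-trend 24.1% of the 141 miRNAs were called with a positive value, a smaller fall at 10 ng, and 12.8% with a negative one. At 10 ng against 100 ng before oxidation 34.8% were called lower and 19.1% higher. How far the interaction calls mirror those was not tested over the 141. Among the arms miR-449a-5p was called at 1.96 ± 0.31 (limma adjusted p = 0.00212) and miR-34b-3p at -0.55 ± 0.18 (limma adjusted p = 0.0439). With a pseudocount of 0.1 both calls were lost, at 1.28 for miR-449a-5p (limma adjusted p = 0.279) and -0.55 for miR-34b-3p (limma adjusted p = 0.276), and edgeR called neither. Apart from fits that left out a library, the call of miR-34b-3p held in 5 of 10 alternatives. That of miR-449a-5p held in 7 of 9. The arms miR-34c-5p (0.84, 95% interval -0.38 to 2.07) and miR-34c-3p (0.29, -0.63 to 1.20) were not called. After oxidation miR-449a-5p had 0 reads at 10 ng and 1 at 100 ng. Its value thus nearly repeats its change of -2.15 between inputs before oxidation, with the sign turned, and says little on periodate. For miR-34b-3p, with 0 reads after oxidation at both inputs, the value is the change between inputs before oxidation with its sign turned, and it carries no separate information on periodate. For miR-34c-3p, likewise at 0 after oxidation, leaving out the first 10 ng replicate before oxidation gave a call at 0.83 (limma adjusted p = 0.00205). The call of miR-34b-3p was lost in 8 of 12 fits that left out a library, all except those without the second 10 ng or 100 ng replicate before oxidation or either 50 ng library after it, with limma adjusted p of 0.0323 to 0.111 over the 12. By edgeR 0 of 141 miRNAs were called in this comparison (11 at an unadjusted p below 0.05), and by DESeq2 8.

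The other 6 family names of the table were sparse or empty. Before oxidation miR-34a-5p, induced by the tumour suppressor p53 in many tissues, had 1.55 to 8.43 RPM in all 6 libraries (71 reads), and miR-449a-3p had 0 to 5.43 RPM (55 reads in 5 libraries). Of miR-34a-3p there was 1 read, in the second 50 ng library. No read was listed for miR-449b, miR-449c-5p or miR-449c-3p in any library. The Mir449c hairpin lies in Cdc20b as Mir449a does, on chromosome 13 from 113035983 to 113036091. After oxidation all 6 were at 0 reads. None of the 1018402 sequences of the piRNA table lay wholly within the RefSeq hairpins of Mir34a, Mir34b, Mir34c, Mir449a or Mir449c, and none began with the first 17 bases of the 9 RefSeq mature sequences of these hairpins. Those 9 do not include miR-34c-5p, and no Mir449b hairpin was searched. All reads of the family used here come from the miRNA table.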

How the data were processed

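Per the labels, small RNA libraries were made from mouse testis RNA before and after periodate oxidation at 3 inputs with 2 technical replicates (12 libraries). The authors deposited RPM values for miRNAs and piRNAs, and no source used here states the denominator. Spike-ins were deposited by the authors as unnormalized counts of reads. Per the submitters' processing notes Bowtie was used with mm10 and hg38, the role of hg38 and the version not being given in the sources used here.

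The value of 1 read was recovered from the piRNA table (100% of its values whole within 0.01 of a read). Of the miRNA values 93.24% to 100% were whole, and all were sixths of a read, as from shared reads. Log2(RPM + 1) of miRNAs with a mean of at least 5 RPM was modelled by limma-trend over the means of 6 groups (R 4.3.3, limma 3.58.1), with p-values Benjamini-Hochberg adjusted over 141 miRNAs, threshold 0.05. edgeR 4.0.16 and DESeq2 1.42.0 were run on rounded reads. Alternatives were other pseudocounts (0.1 and 10), filters (none and 50 RPM), scalings, a replicate block, fewer groups and leaving out each library. Tests were tried on simulated data. Intervals and floors cover counting error only.

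The members and lists were chosen with earlier results of these data known. Named were the members, the other family names and, by the highest correlation before oxidation, the 5 miRNAs most like each leading arm. Other list members and miR-202 were named after their values were seen. Sequences and coordinates are from RefSeq (GRCm38.p6) and GENCODE M21, the assembly of mm10.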

Additional observations from a re-analysis of the deposited data

Results flagged for a closer look

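For 2 arms the change on oxidation differed between 10 ng and 100 ng in the test of that difference. The change of miR-449a-5p was 1.96 higher at 10 ng than at 100 ng on the log2 scale, and that of miR-34b-3p was 0.55 lower, a difference of -0.55. Both arms had 0 to 1 read per library after oxidation, so these values follow the levels before it, 8.09 RPM at 10 ng and 38.5 RPM at 100 ng for miR-449a-5p and 150.5 RPM at 10 ng and 103 RPM at 100 ng for miR-34b-3p. With a pseudocount of 0.1 neither call held (limma adjusted p of 0.279 for miR-449a-5p, at 1.28, and 0.276 for miR-34b-3p).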

How the results depend on the processing

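Over the alternatives the calls on oxidation numbered 139 in the main analysis, 298 without a filter, 66 with a filter of 50 RPM, 21 by edgeR and 27 by DESeq2. At 10 ng against 100 ng they numbered 76, with 38 at a pseudocount of 0.1, 115 without a filter and 26 with 50 RPM. By scaling, the split of lower against higher calls was 49 to 27 in RPM, 23 to 37 after centring, 39 to 40 with methylated spike-ins, 24 to 47 with all spike-ins, 33 to 42 by edgeR and 30 to 36 by DESeq2. At 50 ng against 100 ng the count of 0 became 40 with a pseudocount of 10, 18 without a filter, 2 with 50 RPM, 17 with methylated and 23 with all spike-ins, 11 by edgeR, 35 by DESeq2, 42 with only the groups compared, 41 with only the 6 libraries before oxidation and 42 with summed miRNA RPM. The interaction, with 52 calls, gave 18 and 95 with pseudocounts of 0.1 and 10, 18 with 50 RPM, 0 by edgeR, 8 by DESeq2 and 30 with the replicate block. Its split of positive to negative calls was 34 to 18 in RPM, 15 to 31 after centring, 25 to 41 with methylated and 15 to 51 with all spike-ins, while on oxidation the split of higher to lower calls was 2 to 137 in RPM, 69 to 60 after centring, 8 to 13 by edgeR and 19 to 8 by DESeq2. Leaving out 1 library gave 136 to 140, 55 to 82, 0 to 13 and 36 to 59 calls in these 4 comparisons (at 50 ng against 100 ng, 13 without either 10 ng library before oxidation, 2 without either 50 ng library after it and 1 without either 100 ng library before it), where a lone library was assumed to vary like the other groups.

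Directions turned on oxidation for miR-34c-5p (0.15 by DESeq2), miR-34c-3p (1.98 after centring) and miR-449a-5p (1.75 after centring, 1.98 by DESeq2). Both scale each library to its own miRNAs. Since 97.2% of the 141 were called lower in RPM, these values are relative to other miRNAs. At 10 ng against 100 ng the value of miR-34c-3p turned to 0.0929 after centring, 0.14 by edgeR, 0.00844 with methylated and 0.26 with all spike-ins, and spanned -0.83 to 0.26 without 1 library. In the interaction it became -0.0929, -0.14, -0.00844 and -0.26 in the same order, and spanned -0.26 to 0.83 without 1 library, while miR-34c-5p became -0.22 with all spike-ins and miR-449a-5p -8.03 by edgeR. The cause of the turns at 10 ng against 100 ng and in the interaction was not tested.

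With the replicate block miR-34b-3p lost its interaction call (limma adjusted p = 0.14) and no other call of an arm changed. Same-numbered libraries did not deviate together (r = -0.20 to 0.04 over 141 miRNAs). This cannot decide whether the numbers pair libraries before and after oxidation, since those after it held only 625 to 937 miRNA reads each. The ratio of miR-34b-3p to miR-34b-5p was 106 per library and 201 in summed reads, and the family's share of miRNA RPM was 1.45% for 5 arms and 1.46% for all 11 names. Oxidation averaged over inputs uses all 12 libraries, so a fit of only the groups compared was not run for it, and the arms under 50 RPM have no value under that filter.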
